A study of Mus musculus with 6 samples.

Results

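The genes of the Kennedy pathway, the route by which animal cells make phosphatidylcholine from choline, were followed in type II alveolar epithelial cells of mice bred to lose Gpr116, an adhesion receptor, from this cell type. The pathway was taken as 10 genes chosen by symbol, namely Chka, Chkb, Pcyt1a, Pcyt1b, Cept1, Chpt1, Pemt, Lpin1, Lpin2 and Agpat2. Of these, 9 had a probe set annotated with that symbol alone and were measured, out of 19938 such genes on the array. Chkb had no probe set with its symbol alone, so its expression was not measured here. Each of the 9 had 1 probe set.

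Expression was measured on 6 Affymetrix mouse arrays, each holding RNA pooled from the type II cells of 3 mice aged 8 weeks. The 3 pools labelled knockout came from triple-transgenic mice with SP-C-rtTA, with (tetO)7CMV-Cre and with Gpr116flx/flx, in which a doxycycline-dependent Cre recombinase is driven through the surfactant protein C promoter and can cut the floxed Gpr116 allele. The 3 control pools came from double-transgenic littermates with SP-C-rtTA and with (tetO)7CMV-Cre, so both groups carried the Cre system. No floxed allele is named for the controls. Cells were isolated with collagenase and differential plating, and the RNA was taken 2 hours after isolation. No label used here gives the doxycycline schedule.

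The probe set of the targeted gene, Gpr116 (Adgrf5), read 11.89, 11.78 and 11.87 in the knockout-labelled pools and 11.49, 11.53 and 11.51 in the control pools. It was thus called higher, by 0.34 on log2 (limma adjusted p = 0.0119), and not lower where the labels say knockout. Whether its probes fall in the deleted part could not be settled. All directions below therefore rest on the labels. Type II cell identity was plain on every array, with a mean of 12.44 to 12.48 over 9 type II markers in the knockout-labelled pools and 12.36 to 12.39 in the control pools (log2). Of these markers 1 was called, Lamp3, a lamellar body membrane protein gene, higher at 0.32 (limma adjusted p = 0.0337). Abca3, Napsa and Slc34a2 were also above all control arrays without passing (0.15, 0.17 and 0.06). Sftpa1 was below all control arrays without passing (-0.04). For Sftpc, Sftpb, Sftpd and Etv5 the groups overlapped (-0.007, 0.03, 0.05 and 0.06). Markers of ciliated cells, the motile airway cells, were lower in the knockout-labelled pools in 8 of 8 genes (limma adjusted p under 0.05), with a marker mean of 8.93, 8.53 and 8.35 on knockout 1, 2 and 3 and of 9.55 to 9.62 in the control pools. Of 6 club cell markers 2 were lower, Scgb3a2 and Cyp2f2, and none was called higher. Scgb1a1 lay below all control arrays without passing (-0.13), while Bpifa1, Muc5b and Scgb3a1 had positive differences of 0.51, 0.32 and 0.08. The club marker mean was 10.42, 9.89 and 11.18 on knockout 1, 2 and 3, against 10.49 to 10.73 in the control pools. Of the other marker lists, the type I marker Ager (0.22), the endothelial marker Pecam1 (0.45) and the neutrophil marker Retnlg (0.58) were higher. Pecam1, at 5.48 to 6.06, and Retnlg, at 5.17 to 6.12, lay below the array medians of 6.77 to 6.81 on every array. The endothelial marker Kdr was lower (-1.18), and no macrophage, fibroblast, T cell or B cell marker passed. The rest of these 3 lists did not pass. The type I markers Hopx and Aqp5 lay below all control arrays (-0.26 and -0.38), and Akap5, Rtkn2 and Pdpn had positive differences (0.72, 0.62 and 0.43). The endothelial markers Cdh5, Tek, Tie1 and Cldn5 stood at 0.62, 0.18, 0.14 and 0.003. The neutrophil markers other than Retnlg stood between -0.003 and 0.03. T cell markers averaged 6.69 on knockout 1, 5.57 and 5.62 on the other knockout-labelled pools and 5.66 to 5.77 in the control pools. Fibroblast markers averaged 9.38, 10.24 and 9.59 on knockout 1, 2 and 3, against 9.79 to 9.95 in the control pools. The array titles carry further numbers that the labels do not explain, and the first of them was never shared between the groups. Judged by Xist and Y-linked genes, knockout 2 and control 1 were male pools and the other 4 were female. In pooled RNA of this kind, fewer cells of a type and less RNA per cell cannot be told apart.

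Phosphatidylcholine is the main lipid of pulmonary surfactant, which type II cells make, store in lamellar bodies and secrete to keep the alveoli open. In the Kennedy pathway choline is phosphorylated by a choline kinase, turned into CDP-choline by the enzyme CCT at the cost of cytidine triphosphate, and joined to diacylglycerol by a cholinephosphotransferase. The CCT step is usually the slowest, and its main form, CCT alpha, encoded by Pcyt1a, switches on when it binds to membranes. The diacylglycerol comes from phosphatidic acid, which an acyltransferase such as Agpat2 makes and a lipin phosphatase uses up.

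Of the 9 measured genes 3 passed the test, and the start-site windows of these 3 are printed because they are the genes that the results turn on. Each window runs from 250 bases before to 50 bases after a RefSeq start site on GRCm38.p6, 5′ to 3′ on the gene's own strand, and is the first one listed where a gene has several. Capitals mark GGGCGG, the GC box to which Sp1-type factors bind, and TCACCCCAC, letters of the sterol regulatory element, searched on both strands.
Pcyt1a (chr16:32430671-32430970, plus strand): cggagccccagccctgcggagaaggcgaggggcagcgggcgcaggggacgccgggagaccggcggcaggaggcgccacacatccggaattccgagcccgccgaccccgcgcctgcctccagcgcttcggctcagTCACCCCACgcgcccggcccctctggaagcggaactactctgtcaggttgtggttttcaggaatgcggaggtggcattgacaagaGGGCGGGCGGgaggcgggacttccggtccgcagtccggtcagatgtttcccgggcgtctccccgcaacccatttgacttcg
Pcyt1b (chrX:93654613-93654912, plus strand): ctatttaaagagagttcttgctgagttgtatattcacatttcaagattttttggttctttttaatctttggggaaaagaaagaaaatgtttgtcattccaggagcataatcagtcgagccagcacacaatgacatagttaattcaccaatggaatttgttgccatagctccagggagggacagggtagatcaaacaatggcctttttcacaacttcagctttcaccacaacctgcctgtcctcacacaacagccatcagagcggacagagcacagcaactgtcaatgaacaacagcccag
Agpat2 (chr2:26604368-26604667, minus strand): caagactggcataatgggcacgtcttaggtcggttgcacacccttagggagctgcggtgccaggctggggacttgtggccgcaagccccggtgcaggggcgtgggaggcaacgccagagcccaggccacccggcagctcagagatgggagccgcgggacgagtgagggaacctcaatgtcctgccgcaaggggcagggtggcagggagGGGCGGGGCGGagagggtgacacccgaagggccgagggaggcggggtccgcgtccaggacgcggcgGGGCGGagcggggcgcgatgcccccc

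The Pcyt1a window was GC-rich, at 69.7% G and C, and held 2 GC boxes that overlap each other and 1 copy of the sterol regulatory element letters. The Agpat2 window, at 72% G and C, held 3 GC boxes, of which 2 overlap, and no copy of the sterol letters. The Pcyt1b window, at 42% G and C, held neither. Over all 18 windows of the 10 genes, Chkb included, GC boxes were present in 10, belonging to 7 genes, against 35.7% of all 32851 mouse start-site windows of this length. The sterol letters were present in 2 overlapping Pcyt1a windows and in no other gene of the pathway, against 0.551% of all windows. The sterol letters were added to the search after the Pcyt1a sequence had been seen. CCAAT was present in 8 of the 18 windows (37.4% of all), CACGTG in 1 (7.15% of all) and TATAAA in 1, that of Chkb (13.6% of all). These matches describe letters and do not show binding.

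The comparison between groups asked whether deletion of Gpr116 changes the transcripts of this pathway. Both CCT genes, Pcyt1a and Pcyt1b, were lower in the knockout-labelled pools, and the acyltransferase gene Agpat2 was higher. Chka, Chpt1, Cept1, Pemt, Lpin1 and Lpin2 did not pass the test. In numbers, 1 of the 9 genes was higher and 2 were lower at a limma adjusted p under 0.05, against 3.36% of all 19938 genes higher and 5.13% lower, or 8.49% in either direction. At an unadjusted p under 0.05 there were 5 of 9, against 22.1% of all genes. The 2 groups did not overlap for 5 of the 9 genes, against 27.6% of all genes. The median difference over the 9 genes was 0.003 on log2, as it was over all genes tested. All differences below are log2 values, labelled knockout minus control, with the limma standard error.

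**Figure D1:**
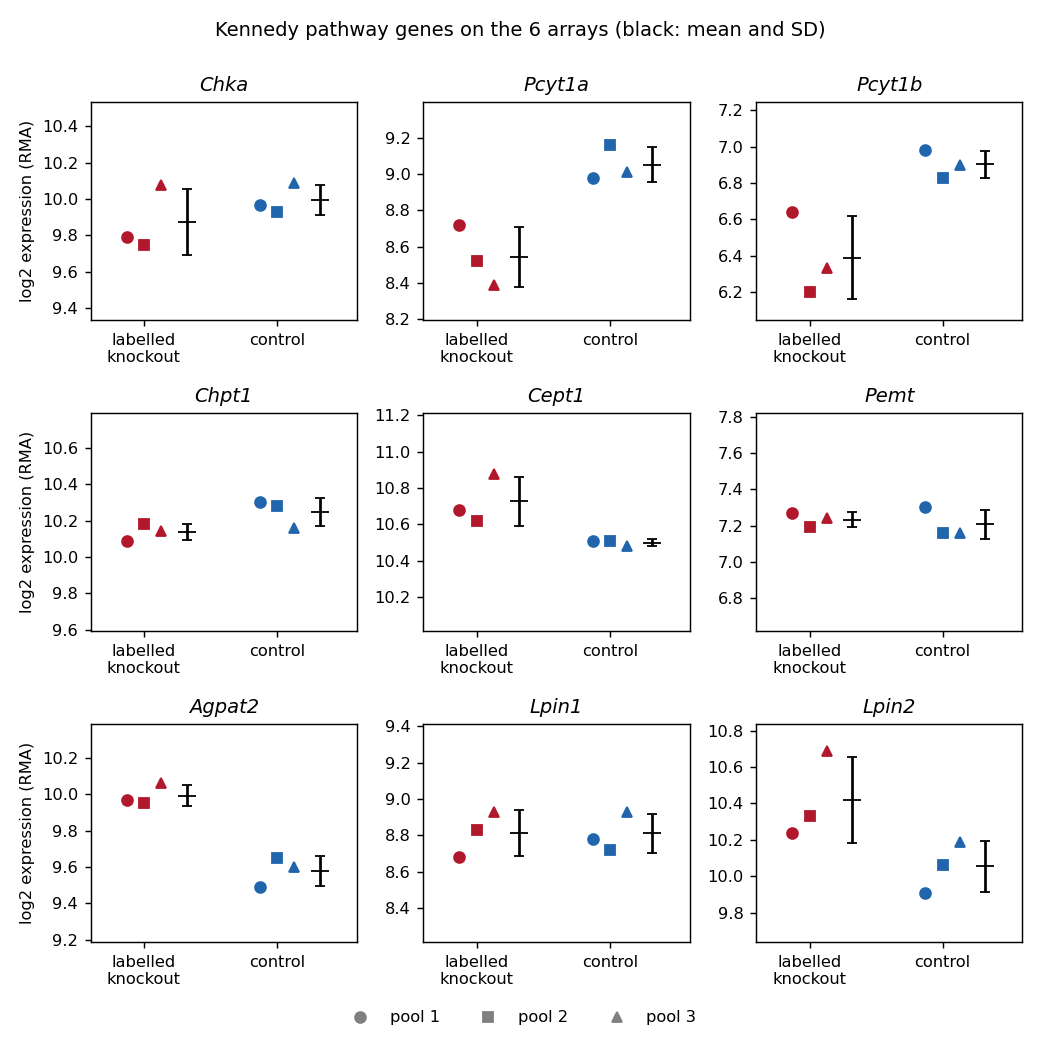
Log2 expression of the 9 measured Kennedy pathway genes on each array, with the knockout-labelled pools in red on the left and the control arrays in blue on the right of every panel, each panel spanning the same 1.2 log2 units. Symbols give the pool number and black bars the mean and SD (n = 3). Pcyt1a and Pcyt1b lie below all control arrays, and Agpat2, Lpin2 and Cept1 lie above them.

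The first step, the phosphorylation of choline, is represented by Chka, the choline kinase alpha gene. It read 9.79, 9.75 and 10.08 in the knockout-labelled pools and 9.97, 9.93 and 10.09 in the control pools. The groups overlapped, since knockout 3 stood with the controls while knockout 1 and 2 were lower. The difference was -0.12 ± 0.10 (95% interval -0.35 to 0.11; limma adjusted p = 0.538), and it ran from -0.23 without knockout 3 to -0.06 without knockout 2.

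Pcyt1a, which encodes CCT alpha, the enzyme of the usually limiting step, read 8.72, 8.52 and 8.39 in the knockout-labelled pools and 8.98, 9.16 and 9.01 in the control pools. Every knockout-labelled pool was below every control array, and knockout 1 was the closest to them. The gene fell by 0.51 ± 0.10 (1.42-fold; 95% interval of the difference -0.73 to -0.28; limma adjusted p = 0.0224), with an SD of 0.17 in the knockout-labelled pools and 0.096 in the control pools (n = 3 each). The call was lost without knockout 3 (adjusted p = 0.0609), control 1 (0.0684), control 2 (0.0959) or control 3 (0.0863), and when all 35556 probe sets were tested together (0.0520), while the difference stayed between -0.60 and -0.43 whichever array was left out. It was kept under the replicate block (adjusted p = 0.0324).

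Pcyt1b, the gene of the beta form of the same enzyme, read 6.64, 6.20 and 6.33 in the knockout-labelled pools and 6.98, 6.83 and 6.90 in the control pools. The signal was thus weaker than that of Pcyt1a and lay around the array medians of 6.77 to 6.81. Again the groups did not overlap and knockout 1 was nearest to the controls. The gene fell by 0.51 ± 0.11 (1.43-fold; 95% interval of the difference -0.78 to -0.25; limma adjusted p = 0.0381), with an SD of 0.23 in the knockout-labelled pools and 0.075 in the control pools. Of the single arrays, only the removal of knockout 1 kept the call (adjusted p = 0.0028), and the values without the others ran from 0.0553 without knockout 2 to 0.135 without control 1 or control 3. The call was also lost with the sex of the pool as a covariate (adjusted p = 0.0617) and over all probe sets (0.0817).

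Both falls went with lower ciliated cell markers, which were lower in 8 of 8 genes by 0.60 to 1.26. Foxj1, the master regulator of motile cilia, read 8.90, 8.64 and 8.47 in the knockout-labelled pools and 9.34, 9.43 and 9.59 in the control pools. Pcyt1a put the knockout-labelled pools in the order of the ciliated marker mean, with knockout 1 highest and knockout 3 lowest, and it was the only one of the 9 genes to do so. That order was seen in 17% of all genes tested and in 54.2% of the lower ones. Pcyt1b had knockout 2 lowest. The part of these markers in the 2 falls was not tested.

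**Figure D2:**
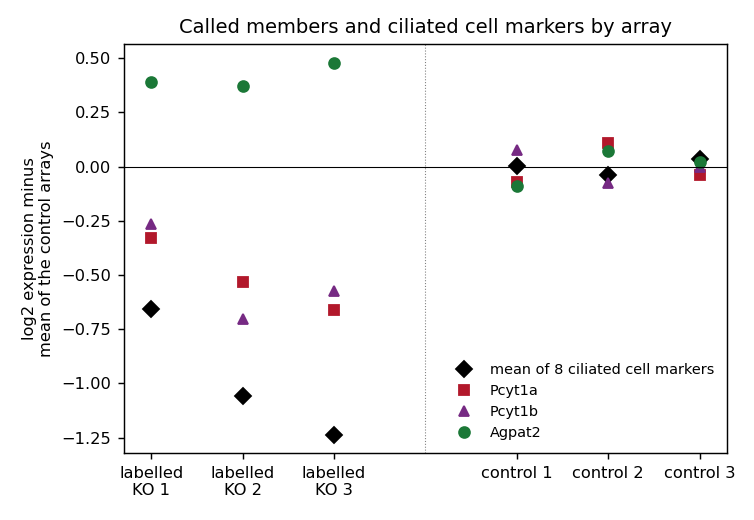
Log2 expression of Pcyt1a, Pcyt1b, Agpat2 and the mean of 8 ciliated cell markers on each array (knockout-labelled pools on the left), each as the distance from the mean of the control arrays. Both CCT genes and the marker mean lie below 0 on all 3 knockout-labelled pools, nearest to it on knockout 1, and Agpat2 lies above 0 there.

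The last step is carried by the phosphotransferases of Chpt1, which is specific for choline, and Cept1, which takes CDP-choline or CDP-ethanolamine. Chpt1 read 10.09, 10.18 and 10.14 in the knockout-labelled pools and 10.30, 10.28 and 10.16 in the control pools. The groups overlapped by control 3 alone, and the difference was -0.11 ± 0.06 (95% interval -0.25 to 0.03; limma adjusted p = 0.346). Cept1 read 10.68, 10.62 and 10.88 in the knockout-labelled pools and 10.51, 10.51 and 10.48 in the control pools. Its groups did not overlap, and the difference of 0.23 ± 0.07 (95% interval 0.05 to 0.40) did not pass (adjusted p = 0.129). The Cept1 controls lay within 0.03 of each other, while knockout 3 stood 0.2 above its nearest neighbour in the group. Without knockout 3 the difference was 0.15 (adjusted p = 0.219), and with array quality weights Cept1 passed (0.0495). With these weights 1000 of all genes tested were called higher, against 670 without them. The 2 phosphotransferase genes thus had differences of opposite sign, neither past the threshold.

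Pemt, which makes phosphatidylcholine by methylating phosphatidylethanolamine, mainly in liver, read 7.27, 7.19 and 7.24 in the knockout-labelled pools and 7.30, 7.16 and 7.16 in the control pools. The groups overlapped fully, and the difference was 0.03 ± 0.06 (95% interval -0.11 to 0.17; limma adjusted p = 0.859).

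Among the genes that supply diacylglycerol, Agpat2 encodes an acyltransferase of the endoplasmic reticulum that turns lysophosphatidic acid into phosphatidic acid. It read 9.97, 9.95 and 10.06 in the knockout-labelled pools and 9.49, 9.65 and 9.60 in the control pools. The groups were clear of each other by 0.3, and the spread was small in both (SD of 0.059 in the knockout-labelled pools and 0.082 in the control pools, n = 3 each). Agpat2 rose by 0.41 ± 0.06 (1.33-fold; 95% interval of the difference 0.26 to 0.56; limma adjusted p = 0.0111). It passed under each of the 10 other settings with all arrays and was called in 5 of the 6 fits that left out an array, missing without control 3 (adjusted p = 0.0572). Beside it, the type II marker Lamp3 was higher by 0.32, while the median difference over the 9 type II markers was 0.06. The part of the type II markers in the Agpat2 difference was not tested.

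Lpin1 and Lpin2 encode lipins, phosphatases that turn phosphatidic acid into diacylglycerol. Lpin1 read 8.68, 8.83 and 8.93 in the knockout-labelled pools and 8.78, 8.72 and 8.93 in the control pools. Its groups overlapped, with a difference of 0.003 ± 0.085 (95% interval -0.20 to 0.20; limma adjusted p = 0.987) whose sign was not stable, at -0.010 after repeated quantile normalization. Lpin2 read 10.24, 10.33 and 10.69 in the knockout-labelled pools and 9.91, 10.06 and 10.19 in the control pools. Its groups did not overlap, although knockout 1 was only 0.05 above control 3. The difference of 0.37 ± 0.13 (95% interval 0.06 to 0.67) did not pass (adjusted p = 0.150). Knockout 3 stood 0.36 above the next pool of its group, and without it the difference was 0.23 (adjusted p = 0.269). In both groups Lpin2 was lowest in pool 1 and highest in pool 3, and it passed once the replicate number entered the fit as a block (adjusted p = 0.0353). With that block 2 members were higher, Agpat2 and Lpin2, and 2 lower.

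**Figure D3:**
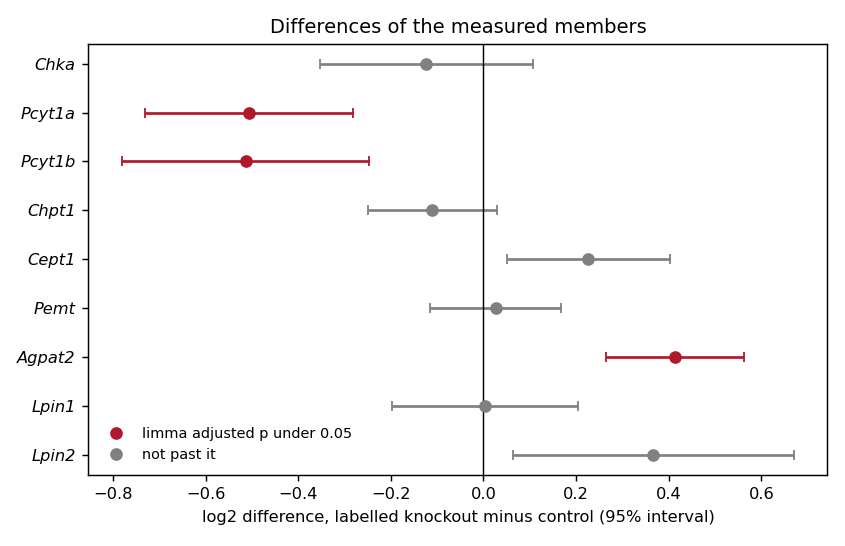
Log2 difference of each measured gene, labelled knockout minus control, with its 95% interval from limma (points to the left of 0 are lower in the knockout-labelled pools), red where the adjusted p was under 0.05. The intervals of Pcyt1a and Pcyt1b lie below 0, and those of Agpat2, Lpin2 and Cept1 above it, the last pair without passing the adjusted threshold.

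The 9 genes varied more between the pools labelled knockout than between the control pools in 6 cases, with a median SD of 0.136 in the knockout-labelled pools and 0.0819 in the control pools, against 0.0907 and 0.0625 over all genes tested. Of the 9, 5 were highest on knockout 3 within their group, namely Chka, Cept1, Lpin1, Lpin2 and Agpat2. The share over all genes was not taken for either count, so neither marks out the pathway. Knockout 3 also had the highest club marker mean of the 6 arrays, at 11.18. There Scgb3a1, Bpifa1 and Muc5b were the highest of all arrays, at 12.02, 11.74 and 9.05. Scgb1a1, Cyp2f2 and Scgb3a2 were below all control arrays there, at 12.93, 12.70 and 8.65, so the club markers did not move together. Their part in these values was not tested. Pcyt1a, Pcyt1b and Pemt were highest on knockout 1 and Chpt1 on knockout 2. Pcyt1a was thus lowest where the lipins and Cept1 were highest.

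**Figure D4:**
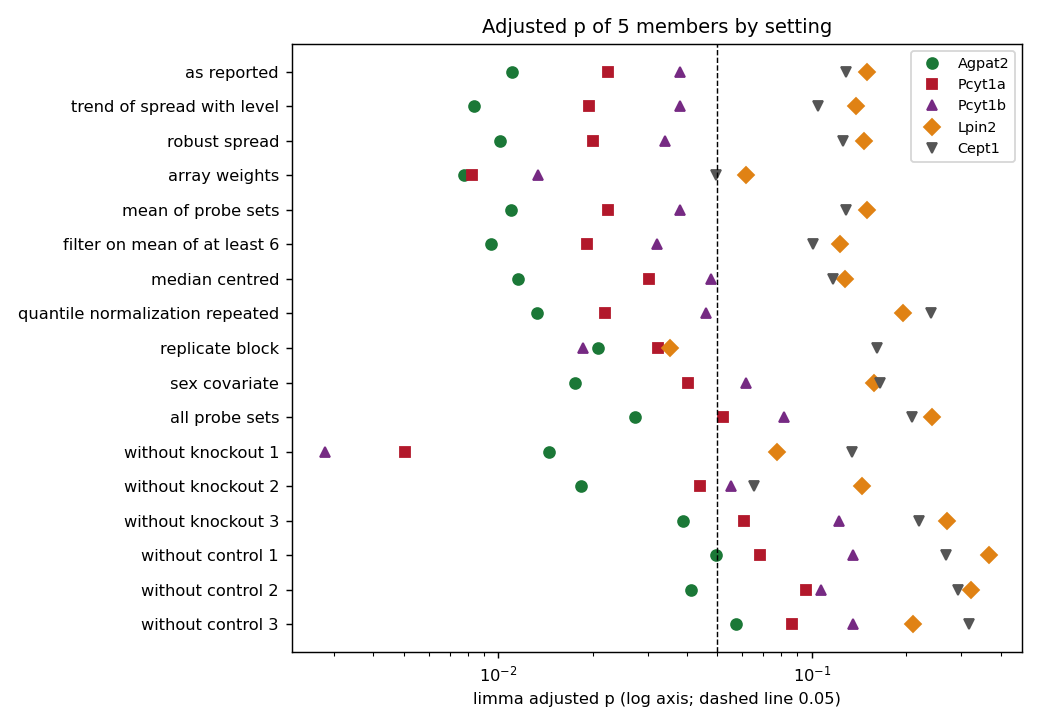
Limma adjusted p on a log axis for Agpat2, Pcyt1a, Pcyt1b, Lpin2 and Cept1 as reported and under 16 other settings, of which 6 leave out an array. The dashed line is 0.05. Agpat2 stays left of the line except without control 3, where its value is 0.0572, and Pcyt1a and Pcyt1b cross it, among other settings, when a control array or knockout 3 is left out.

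By pattern over the 6 arrays, among 3099 other genes with an SD of at least 0.2, the genes most like Pcyt1a were Aldh6a1, a mitochondrial dehydrogenase of valine breakdown (Pearson r = 0.997), Ccno, a cyclin family gene needed in multiciliated cells (0.994), and 1700003E16Rik (0.993). Their differences were -0.34 ± 0.07, -0.47 ± 0.08 and -0.84 ± 0.16. The genes most like Agpat2 were the neuropeptide receptor gene Npffr2 (r = 0.998), the macrophage-expressed perforin-like gene Mpeg1 (0.996) and the purinergic receptor gene P2rx5 (0.994), with differences of 0.88 ± 0.09, 1.103 ± 0.102 and 0.49 ± 0.06. These correlations are descriptions over 6 arrays that also differ by group.

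The rest of the pathway and its branches was covered by 7 lists with 54 measured genes. Of these, 3 were higher and 3 lower (11.1% called, against 8.49% of all genes), with a median difference of 0.030 against 0.003 over all genes. The higher genes were Ctps, Pgs1 and Pld1, and the lower ones Slc44a4, Dgat2 and Pnpla7.

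**Figure D5:**
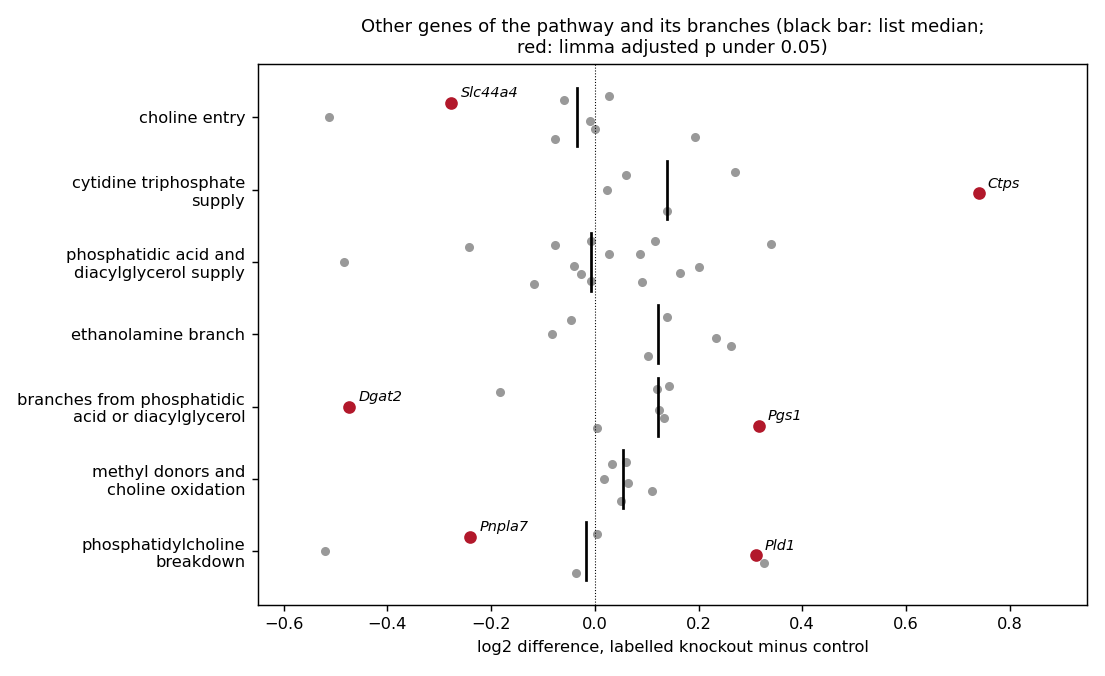
Log2 difference, labelled knockout minus control, of every measured gene in 7 lists around the Kennedy pathway, 1 point per gene (vertical position within a list only separates points), black bars at the list medians, and red named points past a limma adjusted p of 0.05. Ctps at 0.74 stands apart to the right, and the lists' medians lie between -0.035 and 0.140.

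Cytidine triphosphate, the nucleotide that CCT uses, is made by the synthases of Ctps and Ctps2. Ctps read 8.49, 8.53 and 8.53 in the knockout-labelled pools and 7.99, 7.71 and 7.63 in the control pools. The knockout-labelled pools lay within 0.04 of each other, all above the controls. Ctps rose by 0.74 ± 0.09 (1.67-fold; limma adjusted p = 0.00662) and stayed called whichever array was left out, at up to 0.0402. The other 4 genes of this list had positive differences without passing. Cmpk1, the kinase of UMP and CMP, stood at 0.27 ± 0.08 (adjusted p = 0.0793, but 0.0392 with array weights), Umps of uridine monophosphate synthesis at 0.14 ± 0.06 (0.229) and Ctps2 at 0.06 ± 0.07 (0.718). The list median was 0.140, with 1 of 5 higher and 0 lower by limma (2 of 5 at an unadjusted p under 0.05).

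Of 8 genes of choline entry, 1 was lower and none higher by limma (3 at an unadjusted p under 0.05), with a median of -0.035. Slc44a4, of the choline transporter-like family, read 8.95, 8.74 and 8.81 in the knockout-labelled pools and 9.14, 9.08 and 9.11 in the control pools. All 3 controls were higher, and the gene fell by 0.28 ± 0.07, just past the limit (limma adjusted p = 0.0488, but 0.0564 under the replicate block). Without knockout 1 it was called at 0.0150, and without any other array it was not, at up to 0.163. It was also not called on median-centred arrays (0.0730), with sex as a covariate (0.0795) or over all probe sets (0.0966). Slc44a2 of the same family read 10.61, 10.69 and 10.66 in the knockout-labelled pools and 10.50, 10.42 and 10.46 in the control pools, a difference of opposite sign at 0.19 ± 0.05 (adjusted p = 0.0679). Slc44a2 passed with a trend in the spread (0.0421), with array weights (0.0483) and among genes with a mean of at least 6 (0.0497). Flvcr2, a choline transporter of the blood-brain barrier, stood at -0.51 ± 0.15 (adjusted p = 0.0955; -0.34 without control 3) and Slc44a5 at -0.08 ± 0.07 (0.596).

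None of the 15 genes of phosphatidic acid and diacylglycerol supply passed limma (3 at an unadjusted p under 0.05), with differences from -0.48 to 0.34 and a median of -0.007. Gpam, the mitochondrial acyltransferase that starts glycerolipid synthesis, read 11.17, 11.06 and 11.13 in the knockout-labelled pools and 10.94, 10.88 and 10.94 in the control pools. Its groups did not overlap, with a difference of 0.20 ± 0.05 (adjusted p = 0.0686), which passed with a trend in the spread (0.0401) and with array weights (0.0425). Gpat3, an acyltransferase of the same step in the endoplasmic reticulum, stood at -0.24 ± 0.09 (0.159) and was called lower without knockout 1 (-0.33; adjusted p = 0.0393). Plpp3, named after its values were seen, stood at -0.48 ± 0.35 (0.501). It read 9.10, 10.64 and 9.56 in the knockout-labelled pools and 10.10, 10.36 and 10.29 in the control pools. Knockout 2 was thus above all control arrays, and Plpp3 was called lower when that array was left out. Cnep1r1, a subunit of the phosphatase that activates lipins, stood at 0.16 ± 0.07 (0.211) and Agpat3 at 0.09 ± 0.05 (0.340).

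Phosphatidic acid and diacylglycerol also feed phosphatidylglycerol, another surfactant lipid, and triglyceride. Of 8 genes on these branches, 1 was higher and 1 lower, with a median of 0.122. Pgs1, the synthase that commits to phosphatidylglycerol and cardiolipin, read 10.33, 10.14 and 10.28 in the knockout-labelled pools and 9.92, 9.91 and 9.97 in the control pools. The groups did not overlap, and Pgs1 rose by 0.32 ± 0.06 (limma adjusted p = 0.0276). Dgat2, an acyltransferase that turns diacylglycerol into triglyceride, read 7.28, 7.24 and 6.99 in the knockout-labelled pools and 7.85, 7.54 and 7.54 in the control pools. It fell by 0.47 ± 0.11 (adjusted p = 0.0489) and, like Pcyt1a, put the knockout-labelled pools in the order of the ciliated marker mean. In all, 10 of the 54 list genes had that order, among them Dgat1 with its positive difference, against 17% of all genes tested. Dgat1, whose product does the same reaction, stood at 0.14 ± 0.07 (0.265) and Cdipt of phosphatidylinositol synthesis at 0.13 ± 0.06 (0.215). Pgs1 was not called without knockout 3 or any single control (at most 0.121) and over all probe sets (0.0601). When an array was left out, Dgat2 kept its call only without knockout 1 and reached up to 0.128 otherwise. It also lost it on median-centred arrays (0.0562), after repeated quantile normalization (0.0618) and over all probe sets (0.101).

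The ethanolamine branch makes phosphatidylethanolamine by parallel steps, and none of its 6 measured genes passed limma (3 at an unadjusted p under 0.05; median 0.122). Etnk1, an ethanolamine kinase, stood at 0.23 ± 0.07 (limma adjusted p = 0.104), Selenoi, the ethanolaminephosphotransferase, at 0.14 ± 0.05 (0.148) and Pcyt2, which does the step parallel to CCT, at 0.26 ± 0.10 (0.171). Pcyt2 read 9.17, 9.07 and 9.10 in the knockout-labelled pools and 8.77, 8.71 and 9.07 in the control pools, so its sign was opposite to that of Pcyt1a and Pcyt1b and its groups met at control 3. The phosphatidylserine synthase gene Ptdss1 stood at 0.10 ± 0.05 (0.298).

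Of 6 genes of phosphatidylcholine breakdown, 1 was higher and 1 lower, with a median of -0.017. Pld1, a phospholipase D that releases choline from phosphatidylcholine, read 10.02, 10.02 and 9.95 in the knockout-labelled pools and 9.71, 9.65 and 9.70 in the control pools. It rose by 0.31 ± 0.05 (limma adjusted p = 0.0137), and lost its call without control 1, control 2 or control 3, at up to 0.0758. Pnpla7, a lysophospholipase, read 7.05, 7.06 and 7.03 in the knockout-labelled pools and 7.23, 7.26 and 7.37 in the control pools. It fell by 0.24 ± 0.06 (adjusted p = 0.0442, but 0.0875 under the replicate block), and was not called when any 1 array was left out, at 0.0639 to 0.145. It also missed with a trend in the spread (0.0543), median centring (0.0536), sex as a covariate (0.0771) and all probe sets (0.0865). Pla2g4a, the cytosolic phospholipase A2, stood at -0.52 ± 0.15 (0.0888), and was called lower with array weights (0.0279) and without knockout 1 (0.00983). Gpcpd1, which splits glycerophosphocholine, stood at 0.33 ± 0.17 (0.345). Gpcpd1 was high on knockout 1 alone, at 9.48 against 8.86 and 8.85 on the other knockout-labelled pools and 8.58 to 8.86 in the control pools, and without it the difference was 0.12.

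The 6 measured genes of methyl donors and choline oxidation, which bear on the Pemt route, lay between 0.017 and 0.110 (median 0.055). By limma 0 passed, and 0 had an unadjusted p under 0.05. The methionine adenosyltransferase genes Mat2b and Mat1a stood at 0.11 ± 0.07 and 0.06 ± 0.07, and the betaine-homocysteine methyltransferase genes Bhmt2 and Bhmt at 0.06 ± 0.08 and 0.03 ± 0.05 (limma adjusted p of 0.397 to 0.764). Bhmt2 averaged 6.08 in the knockout-labelled and 6.02 in the control pools, and Bhmt 5.71 and 5.68. These means lay below the array medians of 6.77 to 6.81, while Mat2b and Mat1a lay above them.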

How the data were processed

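The deposited values are log2 expression values per probe set, which the authors computed by RMA (Affymetrix Expression Console, version 1.1, per the submitters' processing notes). RMA corrects background, makes the arrays' distributions alike and summarises probes, so a shift shared by most genes is removed before deposit. No source used here names the genome build of the array. The table held 35556 probe sets, with array medians of 6.77 to 6.81. The number of arrays limits the precision.

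Gene symbols came from the platform annotation, in which 21789 probe sets had 1 symbol, 1621 several and 12146 none, and 21698 of the first matched the mouse RefSeq table (GRCm38.p6), with 0 symbols changed. For the 999 genes with several probe sets the brightest on average was used. The 19938 genes were fitted with limma 3.58.1 in R 4.3.3 (lmFit, eBayes, two-sided) with Benjamini-Hochberg adjustment over all genes and a threshold of 0.05. There was no filter, weight or block. The fit was also run on simulated data with independent noise and the same spread in both groups. That run cannot show how the fit behaves with unequal spread or paired pools.

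Groups and pool numbers came from the titles. Nothing says that the pools shared no litter, so the pools may not be independent. The p-values set the group difference against the spread between pools and treat the pools as independent. Deviations of same-numbered arrays from their group means correlated at 0.192, 0.103 and 0.111, each above the 0.1 taken as the limit for pairing. Over all probe sets number 2 gave only 0.0380. The pairing rests on the values, since the labels do not say what a number marks.

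The members and lists were chosen with earlier results of these data known. All 10 members were to be named, and of each list every gene past the threshold and further genes by p until 4 were named, with Gpr116 and the 3 genes most like Pcyt1a and like Agpat2. Etnk2, Mat2a and Ahcy of the lists were not analysed here. Alternatives were a trend or robust spread, array weights, the mean of probe sets, all probe sets, a mean of at least 6, median centring, repeated quantile normalization, the replicate block, sex as a covariate and leaving out each array.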

Additional observations from a re-analysis of the deposited data

How the results depend on the processing

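Among all 19938 genes the limma calls were 670 higher and 1022 lower. With array weights the calls over all genes rose to 1000 higher and 1285 lower. With a trend in the spread the calls were 716 and 1038, and with the replicate block 615 and 969. They were 414 higher when all probe sets were tested, and 144 to 835 higher and 301 to 1265 lower when an array was left out, falling most without control 2 (higher) and control 3 (lower). Of the Kennedy pathway genes, 2 were higher with array weights (Agpat2, Cept1) and 2 with the replicate block (Agpat2, Lpin2), against 1 as reported. The number lower, 2 as reported, was 1 with sex as a covariate and 0 by limma over all probe sets, where 2 had an unadjusted p under 0.05. Leaving out an array gave 0 to 1 higher and 0 to 2 lower members, with 0 lower without knockout 3, control 1, control 2 or control 3, where 2 or 3 had an unadjusted p under 0.05. Of the list genes, 5 were higher with a trend and 6 with array weights, against 3, and the number lower, 3 as reported, was 1 with the replicate block, 1 with sex as a covariate and 0 by limma on median-centred arrays or over all probe sets, where 6 had an unadjusted p under 0.05. Leaving out an array gave 1 to 3 higher and 0 to 4 lower. The Lpin1 difference was -0.010 after repeated quantile normalization and ran from -0.055 to 0.070 without an array, Bhmt2 ran from -0.012 to 0.138, and Bhmt was -0.003 with the mean of probe sets. The replicate block changed no other member's call. Testing all probe sets adjusts over more features, and leaving out an array leaves fewer samples. Over all genes, however, the count rose without knockout 2 (835 higher) and without knockout 1 (1265 lower). The causes of all these changes were not tested.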
